A study of Mus musculus with 48 samples.

Results

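The cytosolic ribosomal protein genes were taken as the rows of the count table whose mouse symbol is Rpl or Rps followed by a number and at most one letter a or x, together with Rplp0, Rplp1, Rplp2, Rpsa and Rps3a1. Symbols ending in -ps, which name pseudogenes, and the Rps6k kinases were left out. The rule gave 77 genes of 55487 rows, 46 of the large subunit and 31 of the small subunit. All 77 had counts in every library (lowest count, 153) and passed the filter on low counts in every comparison. Their levels were measured by RNA-seq in kidney slices of male mice of 2 inbred strains, C57BL/6J and DBA/2J, that were treated outside the body. Each strain had 8 conditions of 3 libraries, 48 libraries in all. The conditions were an untreated control, tunicamycin and cyclosporin A, each at 6 h and at 24 h, and 2 oxygen conditions. Tunicamycin blocks N-linked glycosylation and so stresses the endoplasmic reticulum, and cyclosporin A is a calcineurin inhibitor that is toxic to the kidney. The oxygen conditions were normoxia, titled as an ischemia model, and normoxia-hyperoxia, titled as a reperfusion model. Both titles give 24 h. No group carries a genetic change other than its strain. Doses, the age of the mice, the oxygen level of the control slices, the time of the switch to hyperoxia and whether slices with the same replicate number came from 1 mouse are not given in the sources used here. The p-values therefore measure the spread between these libraries, which may in part be technical.

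A cytosolic ribosome holds 1 copy of most ribosomal proteins, so cells make the proteins in matched amounts, and their mRNAs are among the most abundant in most tissues. Most of these mRNAs start with a C and an unbroken run of pyrimidines, the terminal oligopyrimidine (TOP) motif. Through that motif mTORC1, a kinase complex that senses nutrients and oxygen, and the RNA-binding protein LARP1 control translation and stability of the mRNAs. In the kidney, ribosome synthesis supports the heavy transport work and the regrowth of tubule cells.

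The start sites of 6 of these genes are shown as examples of the motif among genes named in the results below, with and without a pyrimidine run. Each stretch runs from 50 bases before to 30 bases after a RefSeq transcription start on GRCm38.p6. Capitals mark each C that is followed by 7 or more pyrimidines.
Rps6 (chr4:86857338-86857417, minus strand): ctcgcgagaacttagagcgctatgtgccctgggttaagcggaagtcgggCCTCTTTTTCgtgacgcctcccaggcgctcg
Rps15a (chr7:118116118-118116197, minus strand): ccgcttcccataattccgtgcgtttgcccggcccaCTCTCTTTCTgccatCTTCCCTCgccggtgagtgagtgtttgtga
Rpl12 (chr2:32961662-32961741, plus strand): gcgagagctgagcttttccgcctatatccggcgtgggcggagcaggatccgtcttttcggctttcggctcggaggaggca
Rplp0 (chr5:115559417-115559496, plus strand): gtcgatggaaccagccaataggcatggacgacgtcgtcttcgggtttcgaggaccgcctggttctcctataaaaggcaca
Rps21 (chr2:180257399-180257478, plus strand): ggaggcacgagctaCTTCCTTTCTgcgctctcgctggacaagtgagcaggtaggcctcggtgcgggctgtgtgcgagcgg
Rpl35a (chr16:33056432-33056511, plus strand): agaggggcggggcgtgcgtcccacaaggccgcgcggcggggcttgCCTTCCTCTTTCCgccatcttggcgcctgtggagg
Rps21 had 2 listed starts and Rpl35a had 3, and the start nearest to a run is shown. The run of Rpl12 lay past the end of the stretch shown, and Rplp0 had none within 50 bases of its start. RefSeq start sites were matched for 57 of the 77 genes. A C followed by at least 7 pyrimidines, searched on the transcribed strand within 50 bases on either side of the start, was found in 48 of the 57 (84.2%), against 32% of 27025 genes. The 9 without it were Rpl23, Rpl24, Rplp0, Rps13, Rps28, Rps3, Rps3a1, Rps4x and Rpsa. The motif CCGGAAG, the core bound by ETS factors, was found on either strand of the whole 300-base sequence in 42.1% of the members and 9.93% of all genes. TATAAA was found in 10.5% and 15.7%, and AAGATGGC, part of the YY1 motif, in 8.77% and 3.19%. These matches describe letters in a window and are not measured start sites or binding sites.

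Library totals ran from 5619309 to 25137581 counts, with a median of 19607361. The lowest was DBA/2J normoxia-hyperoxia replicate 2, and the next lowest had 12384733. Levels of single genes are given below as CPM, counts relative to the TMM-scaled library size, and changes as log2 fold changes averaged over both strains, from edgeR's quasi-likelihood test with Benjamini-Hochberg adjustment over all genes tested. A gene was called at an adjusted p under 0.05. Markers of 9 kidney cell classes were checked, and none was at 0 in any condition.

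The 77 genes took 1.36% to 1.74% of all counts in the 6 control libraries at 6 h. They took 2.42% to 2.57% in the 6 control libraries at 24 h, above every library at 6 h. Their share was 1.13% to 1.29% in normoxia and 1.42% to 1.73% in normoxia-hyperoxia. No library of either oxygen condition reached a 24 h control library, and the normoxia libraries all lay below the normoxia-hyperoxia libraries. Tunicamycin at 6 h gave 1.47% to 1.70% and cyclosporin A at 6 h 1.38% to 1.72%, both inside the range of the 6 h controls. At 24 h the drug shares were 2.49% to 2.62% and 2.52% to 2.89%. In these bulk samples, fewer cells of a type and less RNA per cell cannot be told apart. The mitochondrial genome's share of counts also moved. It was 8.05% to 16.3% in 6 h controls, 3.39% to 7.87% in 24 h controls, 11.8% to 25.6% in normoxia and 11% to 17.4% in normoxia-hyperoxia. With mitochondrial counts left out of the totals, the members' share was 1.63% to 2.00%, 2.51% to 2.7%, 1.28% to 1.66% and 1.65% to 2.10% in the same order, so the 24 h controls stayed highest, while the ranges of normoxia and normoxia-hyperoxia overlapped. On that scale C57BL/6J normoxia replicate 1 (1.66%) was above C57BL/6J normoxia-hyperoxia replicate 3 (1.65%). From normoxia to normoxia-hyperoxia the mitochondrial share went from 12.8%, 12.4% and 11.8% to 17.4%, 12.7% and 11% in DBA/2J. In C57BL/6J it went from 22.8%, 25.6% and 23.2% to 12.2%, 16.6% and 13.4%. The part of the mitochondrial share in the results was not tested.

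**Figure D1:**
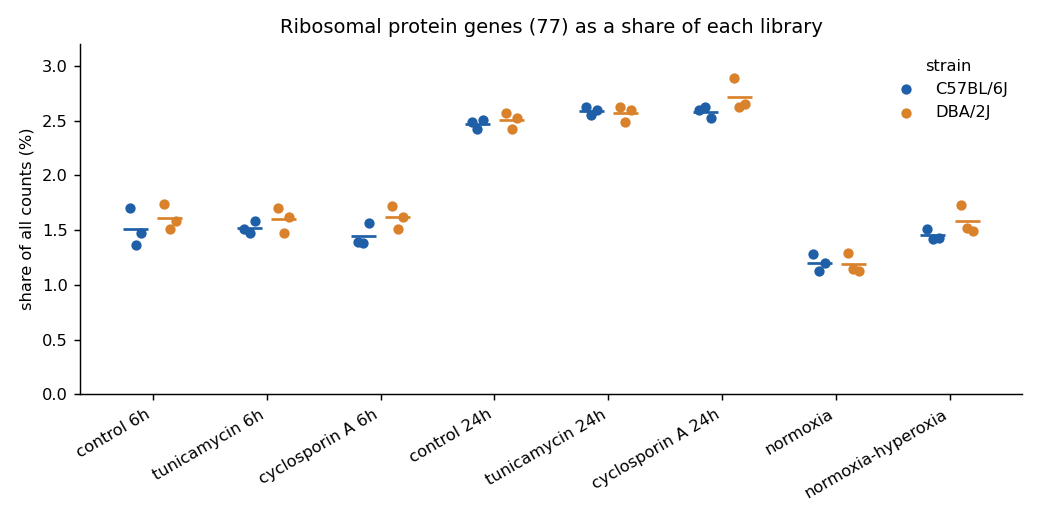
Share of all counts (percent, vertical axis) taken by the 77 ribosomal protein genes in each of the 48 libraries, by condition (horizontal axis) and strain (color). Points are libraries and lines are means of 3. The 24 h control and drug libraries sit between 2.42% and 2.89%, and the normoxia libraries are lowest, at 1.13% to 1.29%.

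Per kilobase of annotated principal transcript, the highest mean levels in the 6 h controls were those of Rps27 (713 CPM per kilobase, range 587 to 833 over 6 libraries), Rplp1 (702, 561 to 860) and Rps15 (594, 500 to 672). Rpl41, which encodes a very short basic peptide, followed at 557 (459 to 635). The ranges of these 4 genes overlapped. Rps20 had the lowest level, 51.2 (44.8 to 58.6), but its annotated principal transcript is 3706 bases long with only 357 coding bases, so that value rests on the annotation. Before it came Rpl39 at 76.2 (63.0 to 87.2) and Rpl5 at 87.9 (82.8 to 94.4).

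Between 6 h and 24 h in control slices, 70 of the 77 genes rose and 1, Rps21, fell. Of the 16962 genes tested, 34.7% rose and 37.4% fell. The median change of the members was 0.41 (1.33-fold), against -0.02 over all genes, and the medians of the 2 subunits were alike, 0.41 for the large and 0.39 for the small. Under library totals in place of TMM the median of all genes moved to 0.19 and that of the members to 0.62, a distance of 0.43. A change of scaling moves all genes together and leaves that distance as it is. The summed level of 10 of 10 proximal tubule markers was 3660 to 8450 CPM in the 6 h controls and 510 to 2320 CPM in the 24 h controls. The summed level of 10 immune markers was 566 to 793 CPM and 221 to 385 CPM. Distal convoluted tubule markers went from 3220 to 4100 CPM to 554 to 1440 CPM, principal cell markers from 473 to 712 CPM to 179 to 315 CPM, and intercalated cell markers from 308 to 519 CPM to 63.9 to 111 CPM. Podocyte and stromal markers were also lower without overlap, at 1550 to 2610 and then 685 to 1540 CPM, and at 215 to 559 and then 136 to 202 CPM. The ranges overlapped for loop of Henle markers (3580 to 10200 and 752 to 4040 CPM) and for endothelial markers (728 to 1640 and 592 to 1380 CPM). The part of these markers in the result was not tested.

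Rpl12, a large-subunit protein at the base of the stalk where translation factors bind, rose most. Its level was 210, 186 and 184 CPM (C57BL/6J) and 227, 184 and 193 CPM (DBA/2J) at 6 h. At 24 h it was 437, 413 and 416 CPM (C57BL/6J) and 422, 406 and 420 CPM (DBA/2J). The times did not overlap in either strain, and the change was 1.07 (SE 0.07, edgeR adjusted p = 4.05e-09), or 2.10-fold. Rps2, a small-subunit protein near the entry of the mRNA channel, rose by 0.84 (SE 0.08, edgeR adjusted p = 2.58e-07). Rplp0, the scaffold of the stalk, and Rps6, the small-subunit protein that S6 kinase phosphorylates, each rose by 0.80 (SE 0.07 and 0.06). The acidic stalk proteins bound to Rplp0 rose less, Rplp1 by 0.29 (SE 0.09) and Rplp2 by 0.41 (SE 0.07). Among members often used as reference genes, Rps18 rose by 0.79 (SE 0.07) and Rpl13a by 0.56 (SE 0.07). Rpsa, which also serves as a laminin receptor, rose by 0.77 (SE 0.08), Rps27a, made as a fusion with ubiquitin, by 0.50 (SE 0.06), and Rpl41 by 0.25 (SE 0.07). Each of these 7 passed the threshold, with Rplp1 nearest to it (edgeR adjusted p = 0.0107).

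Rps21, a small-subunit protein that sits beside Rpsa, went the other way. Its level at 6 h was 185, 126 and 149 CPM (C57BL/6J) and 170, 136 and 161 CPM (DBA/2J). At 24 h it was 115, 114 and 120 CPM (C57BL/6J) and 148, 134 and 150 CPM (DBA/2J). The change was -0.27 (SE 0.09, edgeR adjusted p = 0.0115), with the times apart in C57BL/6J and overlapping in DBA/2J. With RLE factors Rps21 was still called lower, at -0.26. With library totals it was at -0.06, and at -0.17 with totals that left out mitochondrial genes, and no member was called lower on either scale. The members not called included Rps29 (-0.05), Rpl35a (0.13), Rpl39 (0.15), Rpl37a (0.19) and Rps28 (0.22), which were named after their values were seen. No strain interaction was called among the members by edgeR or DESeq2, with 0 at an unadjusted p under 0.05 in edgeR. Of all genes, edgeR called 0.69%. The median change was 0.38 in C57BL/6J and 0.45 in DBA/2J.

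**Figure D2:**
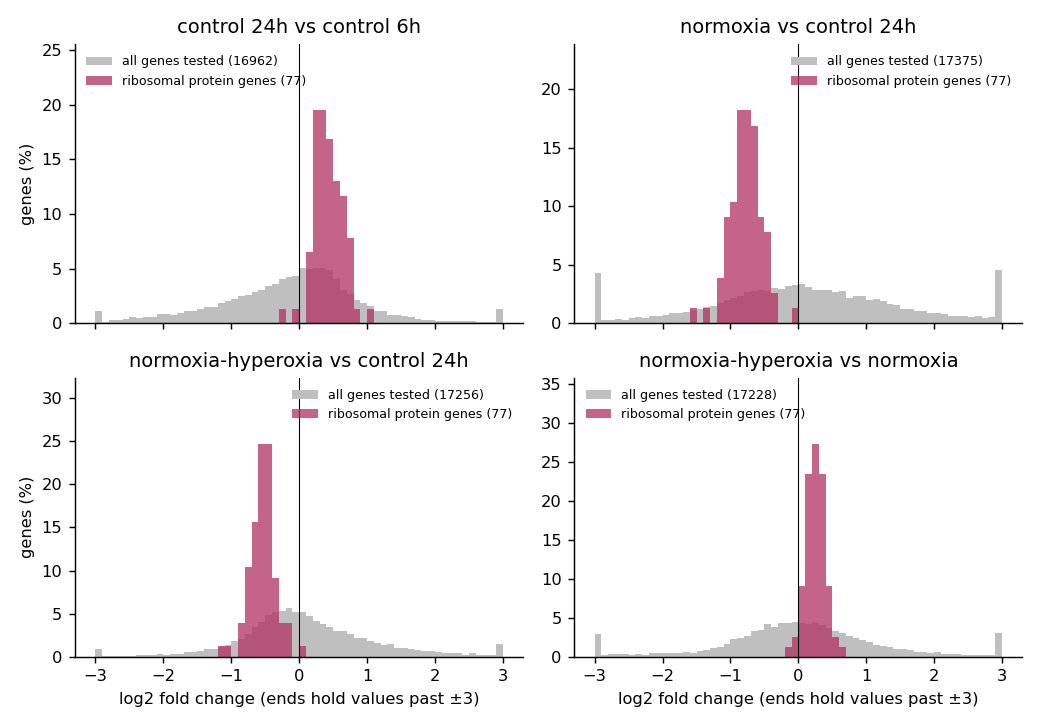
Distribution of log2 fold changes (horizontal axis) of the 77 ribosomal protein genes (red) and of all genes tested (grey), as percent of genes (vertical axis), in 4 comparisons. The members lie in a narrow range around medians of 0.41, -0.76, -0.54 and 0.25, inside the broader distribution of all genes.

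In normoxia, 76 of the 77 genes fell relative to the 24 h controls and none rose. Of 17375 genes tested, 39.7% fell and 42.4% rose. The median change of the members was -0.76 (0.591-fold), the same in both subunits, against 0.05 over all genes. Under library totals the medians were -1.03 for the members and -0.22 for all genes, a distance of -0.81. The normoxia libraries were compared with the same 24 h controls that were high in the comparison above, so the values of these comparisons are not independent. Against the 6 h controls, 73 of 77 members were still lower in normoxia (32.9% of 16819 genes were called lower), with a median of -0.37. The members not called there included Rpl37a, Rps15 and Rps2. That comparison differs in time as well as in oxygen condition. The summed proximal tubule markers were 6750 to 17400 CPM in normoxia, above the 510 to 2320 CPM of the 24 h controls in every library, and the immune markers were 486 to 786 CPM, also above. Distal convoluted tubule (1510 to 3550 CPM), principal cell (317 to 716 CPM) and intercalated cell markers (228 to 587 CPM) were above the 24 h controls without overlap too. Loop of Henle (2290 to 15100 CPM), podocyte (547 to 1270 CPM), endothelial (365 to 964 CPM) and stromal markers (79.0 to 255 CPM) overlapped them. The part of these markers in the result was not tested.

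Rpl12 fell most. Its normoxia levels were 140, 134 and 134 CPM (C57BL/6J) and 152, 132 and 119 CPM (DBA/2J), all far below the 24 h controls given above. The change was -1.59 (SE 0.06, edgeR adjusted p = 9.04e-13), to 0.331 of the control. In the 24 h controls Rps6 was at 242, 235 and 241 CPM (C57BL/6J) and 240, 229 and 234 CPM (DBA/2J). It was at 93.0, 87.8 and 85.8 CPM and at 105, 90.1 and 89.9 CPM in normoxia. The groups did not overlap, and the change was -1.32 (SE 0.05, edgeR adjusted p = 1.59e-12). Rplp0 fell by 1.12 (SE 0.06), as did Rps15a, a small-subunit core protein (SE 0.05), and Rps18 (SE 0.06). The other stalk proteins fell less, Rplp2 by 0.82 (SE 0.06) and Rplp1 by 0.58 (SE 0.07). The changes of Rpsa, Rps27a, Rpl13a and Rpl41 were -0.96, -0.90, -0.80 and -0.47, each called. Rps21 alone was not called, at -0.05 (SE 0.07, edgeR adjusted p = 0.54). Its normoxia levels of 130, 106 and 120 CPM (C57BL/6J) and 145, 112 and 118 CPM (DBA/2J) overlapped those of the 24 h controls. With library totals as the scale Rps21 was called lower too, at -0.32.

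One member differed between strains in its response to normoxia. Rpl5, which binds the small rRNA of the large subunit together with Rpl11, went from 284, 285 and 292 CPM to 146, 120 and 142 CPM in C57BL/6J. In DBA/2J it went from 280, 266 and 267 CPM to 179, 148 and 156 CPM. It thus fell by 1.07 (SE 0.09) in C57BL/6J and by 0.67 (SE 0.09) in DBA/2J. The interaction was 0.40 (SE 0.12, edgeR adjusted p = 0.0382), where 10.1% of all genes were called in that direction. The call was lost with RLE factors, with library totals (with or without mitochondrial genes) and with sequence-matched pseudogene rows added. It was also lost without any 1 of the 6 control libraries, C57BL/6J normoxia replicate 2 or 3, or DBA/2J normoxia replicate 1. With library totals that left out mitochondrial genes, 10 members had a called interaction, all in the lower direction, where 16.7% of all genes were called lower and their median was -0.24.

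**Figure D3:**
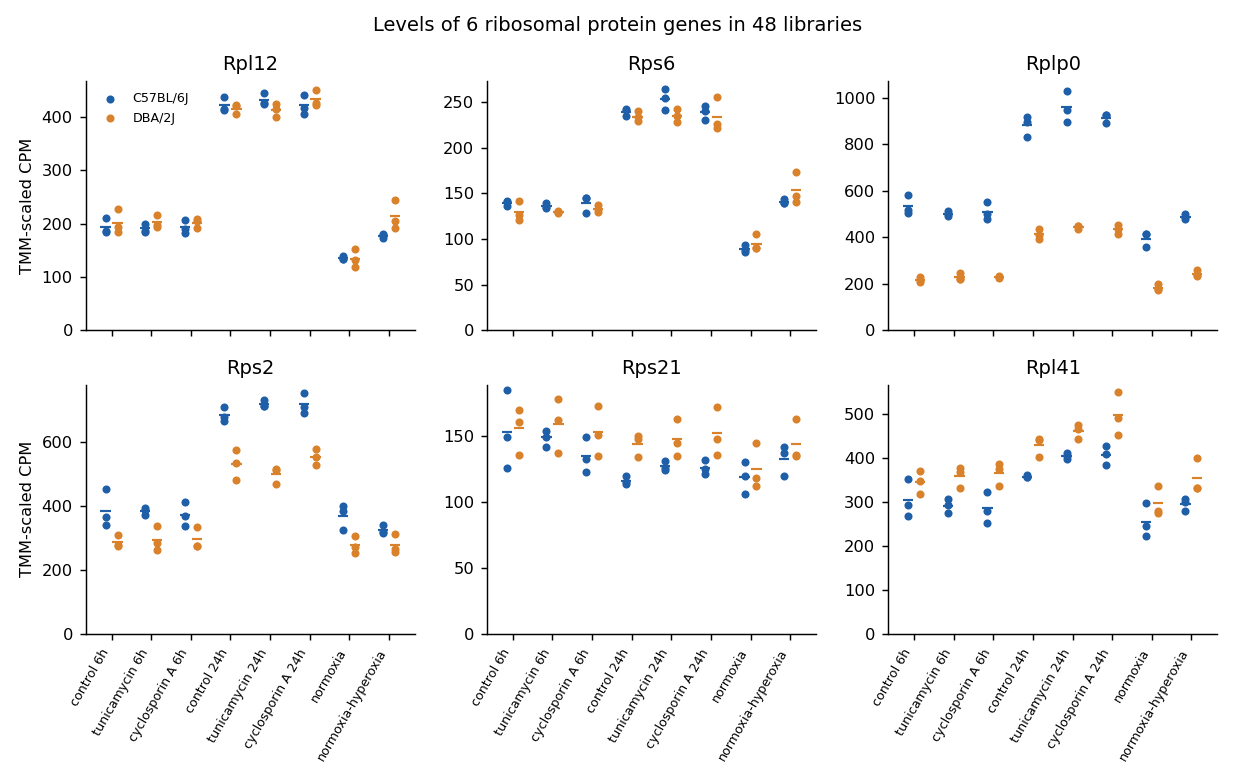
Levels (TMM-scaled CPM, vertical axes from 0) of Rpl12, Rps6, Rplp0, Rps2, Rps21 and Rpl41 in the 48 libraries, by condition (horizontal axis) and strain (color). Points are libraries and lines are means of 3. Rpl12, Rps6, Rplp0 and Rps2 are highest, within each strain, in the 24 h control and drug groups, and Rps21 overlaps across conditions.

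In normoxia-hyperoxia, 74 of the 77 genes were lower than in the same 24 h controls and none was higher. Of 17256 genes tested, 34.1% fell. The median change was -0.54 (0.688-fold), against 0.00 over all genes, and library totals moved these to -0.71 and -0.17. Rpl12 fell by 1.11 (SE 0.06), Rps2 by 1.01 (SE 0.07), Rplp0 by 0.81 (SE 0.06), and Rpsa and Rps18 by 0.80 each (SE 0.07). For Rps2 the control libraries held 707, 678 and 666 CPM (C57BL/6J) and 575, 480 and 533 CPM (DBA/2J). The levels were 339, 314 and 317 CPM and 311, 257 and 264 CPM in normoxia-hyperoxia, so the conditions did not overlap within a strain. The changes of Rps6 (-0.69), Rps27a (-0.67), Rpl13a (-0.61), Rplp2 (-0.54), Rplp1 (-0.33) and Rpl41 (-0.28) were also called. The 3 members not called were Rpl37a (-0.13), Rps29 (-0.13) and Rps21 (0.09). No member had a strain interaction by edgeR or DESeq2, where 1.43% of all genes did by edgeR, and 1 member had an unadjusted p under 0.05. The markers of several cell classes were above the 24 h controls in every library of this condition. They were those of the loop of Henle (5690 to 17700 CPM), the distal convoluted tubule (3920 to 6720 CPM), principal cells (611 to 1140 CPM), intercalated cells (416 to 927 CPM) and immune cells (885 to 1860 CPM). Proximal tubule (303 to 1230 CPM), podocyte (1240 to 2420 CPM), endothelial (1070 to 1560 CPM) and stromal markers (175 to 327 CPM) overlapped the controls. The part of these markers in the result was not tested.

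Set directly against normoxia, 58 of the 77 genes were higher in normoxia-hyperoxia and none was lower, where 37% of 17228 genes were higher and 36.5% lower. The median was 0.25 (1.19-fold) for the members and 0.02 for all genes, and 0.34 and 0.11 under library totals, where 70 members were called. Rps6 rose most, from the normoxia levels above to 144, 139 and 139 CPM (C57BL/6J) and 173, 141 and 147 CPM (DBA/2J). The conditions did not overlap, and the change was 0.65 (SE 0.06, edgeR adjusted p = 1.78e-07). Rps27, a zinc-binding small-subunit protein, rose by 0.60 (SE 0.07), Rpl12 by 0.50 (SE 0.07) and Rps16, a small-subunit protein near the decoding site, by 0.49 (SE 0.08). Rplp0, Rps18, Rplp2, Rplp1, Rps27a, Rpl13a and Rpl41 rose by 0.32, 0.34, 0.29, 0.26, 0.24, 0.21 and 0.20. Rpsa (0.17, edgeR adjusted p = 0.0529) was not called. Rps2 stood at -0.13 (SE 0.08, edgeR adjusted p = 0.145), with overlapping libraries. Changes were positive in 74 of the 77 members. No strain interaction was called among the members by edgeR or DESeq2 (18.2% of all genes were by edgeR), with 1 member at an unadjusted p under 0.05. With library totals that left out mitochondrial genes, 24 members were called for it, all in the higher direction. On that scale 20.4% of all genes were called higher, and the median interaction was 0.31 over all genes and 0.35 over the members. Proximal tubule markers were at 6750 to 17400 CPM in normoxia and 303 to 1230 CPM in normoxia-hyperoxia. Without overlap in the other direction were the markers of the distal convoluted tubule (1510 to 3550 and 3920 to 6720 CPM), immune cells (486 to 786 and 885 to 1860 CPM) and endothelium (365 to 964 and 1070 to 1560 CPM). The ranges of the other classes, given above, overlapped. The part of these markers in the result was not tested. Both oxygen conditions and the 24 h controls enter these comparisons by pairs, so their values are not independent of one another.

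To ask whether the members changed unequally, each comparison was refitted with the summed counts of the 77 genes as the library size, so that 0 stands for the members' common change. On that scale 35 of the 77 differed from the common change between 6 h and 24 h, 18 above and 17 below. In normoxia 44 differed, 19 above and 25 below. In normoxia-hyperoxia against control 27 differed (13 above, 14 below), and against normoxia 22 (12 above, 10 below). Over all genes the shares called on these scales were 70.9%, 84.2%, 73.0% and 71.2%. A scale set by the members leaves other genes shifted, so those shares are no yardstick for the members. The adjustment runs over all genes, and so many were called that it hardly lowered the members' counts. At an unadjusted p under 0.05 the members' counts were 35, 44, 29 and 24, in the same order. Without the filter on low counts, 15 members were called in time, 16 in normoxia-hyperoxia against control and 12 against normoxia. In time the count was 22 without DBA/2J 6 h control replicate 3, and 23 without C57BL/6J 24 h control replicate 1 or DBA/2J 24 h control replicate 2 or 3.

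Rpl12 and Rps21 lay at opposite ends in 3 of these 4 comparisons. Rpl12 was at 0.64 (SE 0.07), -0.85 (SE 0.06) and -0.58 (SE 0.06) for 24 h against 6 h, normoxia and normoxia-hyperoxia, and Rps21 at -0.70 (SE 0.08), 0.69 (SE 0.06) and 0.62 (SE 0.06). All 6 values passed the threshold, and all 3 comparisons hold the 24 h controls. In time, Rps2 (0.41), Rplp0 (0.37) and Rps6 (0.37) followed above, and Rps29 (-0.47), Rpl35a (-0.30) and Rpl39 (-0.28) below. In normoxia, Rps6 (-0.58), Rplp0 (-0.38) and Rps15a (-0.37) fell furthest after Rpl12. Rps15 (0.37), Rpl35a (0.37) and Rpl37a (0.32) were above the common change. In normoxia-hyperoxia against control, Rps2 (-0.48), Rplp0 (-0.28) and Rpsa (-0.27) were below, and Rps29 (0.40), Rpl37a (0.39) and Rps27 (0.37) above. Between the oxygen conditions, Rps6 (0.41), Rps27 (0.36), Rpl12 (0.25) and Rps16 (0.25) were above. Rps2 (-0.37), Rps19 (-0.26), Rpl35a (-0.25) and Rpl10 (-0.24) were below, each past the threshold.

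The unequal change went with the length of the coding sequence. Across the 77 genes, which share their libraries, Spearman's rho between coding length and log2 change was 0.60 for 24 h against 6 h and -0.41 for normoxia. It was -0.49 for normoxia-hyperoxia against control and 0.01 between the oxygen conditions. In time, the 26 genes with the shortest coding sequences (up to 405 bases) had a median change of 0.28, and the 26 with the longest (576 bases or more) 0.55. In normoxia the medians were -0.68 and -0.84, and in normoxia-hyperoxia -0.45 and -0.60. RNA quality has no measure in the files, and its part was not tested. For 24 h against 6 h, the 48 genes with the run had a median change of 0.41 and the 9 without it 0.55. In normoxia these medians were -0.77 and -0.94, in normoxia-hyperoxia -0.54 and -0.59, and between the oxygen conditions 0.24 and 0.32. The difference between genes with and without a run was not tested. Of the 6 genes printed above, Rps6 (-1.32 in normoxia), Rps15a (-1.12), Rpl35a (-0.37) and Rps21 (-0.05) held a run in the stretch shown. Rpl12 (-1.59) and Rplp0 (-1.12) did not, but Rpl12 has a run past that stretch and counts among the 48.

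**Figure D4:**
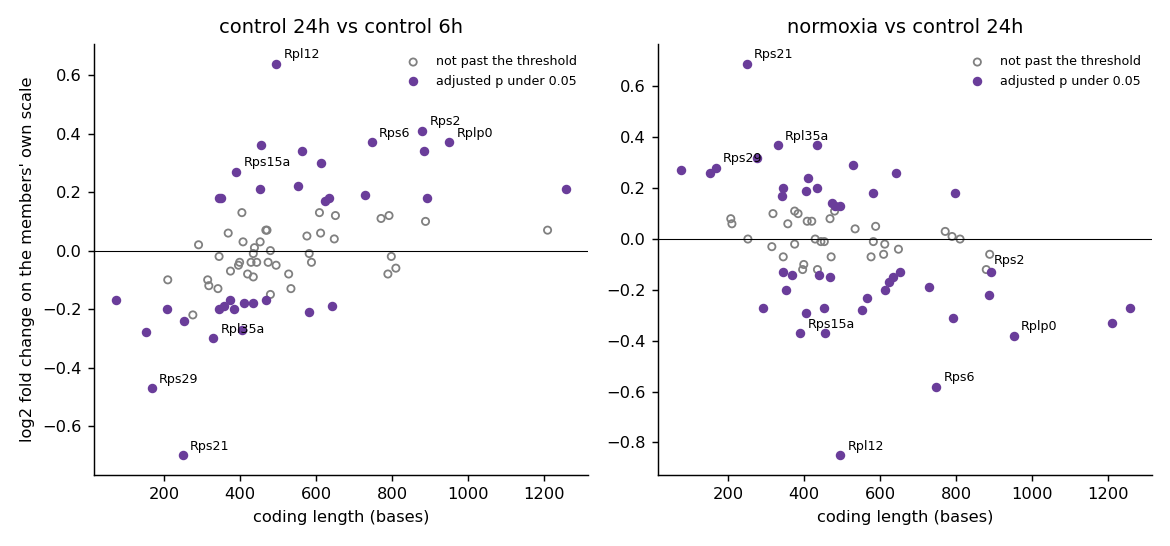
Log2 fold change on the members' own scale (vertical axis, 0 is the common change of the 77 genes) against coding length in bases (horizontal axis), for 24 h against 6 h controls (left) and normoxia against 24 h controls (right). Filled points passed the threshold. Rpl12 and Rps21 lie at opposite ends of each panel, at 0.64 and -0.70 on the left and at -0.85 and 0.69 on the right.

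Neither drug moved the members as the time in culture or the oxygen conditions did. At 6 h, edgeR called 0 of 77 members and 0% of all genes for tunicamycin and for cyclosporin A. DESeq2 also called 0 members, and 0 had an unadjusted p under 0.05 in edgeR. The members' changes lay between -0.09 and 0.08 for tunicamycin and between -0.15 and 0.12 for cyclosporin A. At 24 h, tunicamycin raised 2 members, where 0.97% of 16905 genes rose. In the controls Rplp1 was at 407, 390 and 370 CPM (C57BL/6J) and 498, 455 and 505 CPM (DBA/2J). It was at 506, 495 and 472 CPM and at 524, 532 and 556 CPM with tunicamycin. The treated libraries lay above the controls in each strain, with a change of 0.24 (SE 0.04, edgeR adjusted p = 0.0189). Rps28 rose by 0.23 (SE 0.05, edgeR adjusted p = 0.0272). DESeq2 called 7 members, but the share of all genes it called is not given here, so that count has no yardstick. The fit of all 48 libraries called 0, and no member was called without C57BL/6J control replicate 2 or 3 or C57BL/6J tunicamycin replicate 1. Cyclosporin A at 24 h gave 0 called members (0% of all genes) by edgeR and 0 by DESeq2, with 21 at an unadjusted p under 0.05 and a median of 0.07. Of 16887 genes tested for cyclosporin A, 1107 had an unadjusted p under 0.05. Changes were positive in 71 of 77 members, between -0.03 and 0.21. For tunicamycin at 24 h, changes were positive in 66 of 77 members, with a median of 0.05. There 18 members, and 2174 of the 16905 genes, had an unadjusted p under 0.05.

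Between the strains, 9 to 19 members differed, depending on the condition, and 6 of the 77 were lower in DBA/2J in all 4 conditions tested, as were 2.54% of the 16358 genes tested in all 4. These 6 were Rpl29, Rplp0, Rpl21, Rps18, Rpsa and Rpl34, with Rplp0 of the stalk, Rpl29, Rpl21 and Rpl34 elsewhere in the large subunit, and Rps18 and Rpsa in the small. In the 6 h controls 11 members were lower and 2 higher in DBA/2J (12.7% and 13.6% of all genes). In the 24 h controls 10 were lower and 0 higher (8.27% and 13.9%). In normoxia 7 were lower and 12 higher (18.5% and 28.3%), and in normoxia-hyperoxia 7 lower and 2 higher (11.3% and 14.3%). The median difference over members was 0.01, 0.09, 0.12 and 0.11, against 0.00, 0.04, 0.08 and 0.00 over all genes. Without C57BL/6J normoxia replicate 2 the count in normoxia was 9, and without C57BL/6J 6 h control replicate 1 that in 6 h controls was 24. A replicate block gave more calls in normoxia and in normoxia-hyperoxia, with the counts given in the section on processing. The split in normoxia depended on the scale. It was 9 higher and 10 lower with RLE factors (26.4% and 19.4% of all genes) and 6 and 11 with library totals (23.2% and 20.9%). With totals that left out mitochondrial genes it was 0 and 19 (13.3% and 33.5%), and the median of all genes moved to -0.19. In the 6 h controls library totals gave 14 higher and 7 lower (22.9% and 7.35% of all genes), and in normoxia-hyperoxia 18 and 6 (19.5% and 6.92%). The mitochondrial share was 14.8% to 16.3% in C57BL/6J and 8.05% to 8.32% in DBA/2J 6 h controls, and 22.8% to 25.6% and 11.8% to 12.8% in normoxia. Its part in the result was not tested.

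Rpl29 differed most. In the 24 h controls it was at 156, 147 and 149 CPM (C57BL/6J) and 42.3, 43 and 47.5 CPM (DBA/2J). The difference, DBA/2J minus C57BL/6J on the log2 scale, was -1.75 there (SE 0.13, edgeR adjusted p = 2.02e-07). It was -1.83, -1.72 and -1.79 in 6 h controls, normoxia and normoxia-hyperoxia. In the same controls Rplp0 was at 919, 833 and 895 CPM (C57BL/6J) and 436, 391 and 412 CPM (DBA/2J), with differences of -1.08 there and -1.28, -1.03 and -1.01 in the other conditions. The strains did not overlap for either gene within a condition. Rpl21 differed by -0.75, -0.71, -0.83 and -0.81 in 6 h controls, 24 h controls, normoxia and normoxia-hyperoxia, and Rps18 by -0.72, -0.81, -0.73 and -0.69. In the same order Rpsa differed by -0.57, -0.55, -0.61 and -0.45, and Rpl34 by -0.51, -0.40, -0.44 and -0.31.

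These differences have to be read with the pseudogene rows of the same table. Ribosomal protein genes have many processed copies in the genome, and reads from a member can match a near-identical copy. How reads that match several places were counted is not given in the sources used here. By sequence, 1108 pseudogene rows matched 76 of the 77 members (90% identity over 50% of their length), and 28 of them were higher in every one of the 24 DBA/2J libraries than in every one of the 24 C57BL/6J libraries. For 1 row the reverse held. Rpsa-ps10, 99.3% identical to Rpsa, had a median of 91.2 CPM (69.6 to 180) in DBA/2J and 1.58 CPM (0.692 to 2.45) in C57BL/6J. Gm8730, 98.7% identical to Rplp0, had 89.6 CPM (61.8 to 189) and 1.01 CPM (0.512 to 2.37). Gm8210, 99.4% identical to Rpl29, had 10.8 CPM (6.43 to 17.6) and 0 CPM (0 to 0.0803).

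With the matched rows added to each member, the Rpsa difference was -0.12, -0.06, -0.14 and 0.02 in 6 h controls, 24 h controls, normoxia and normoxia-hyperoxia, and none of these was called. Rplp0 kept differences of -0.59, -0.41, -0.39 and -0.33, all called. Rpl34 was at -0.37, -0.26, -0.32 and -0.17 and lost the call in the 24 h controls and in normoxia-hyperoxia. Rpl29 had smaller differences than in its own row, at -1.38, -1.28, -1.31 and -1.33. Rpl21 (-0.74, -0.70, -0.86, -0.80) and Rps18 (-0.72, -0.79, -0.75, -0.68) kept differences close to those of their own rows. The matched rows held few counts for these last genes. For Rpl21 the 84 rows summed to a median of 5.25 (C57BL/6J) and 3.40 CPM (DBA/2J), and for Rps18 the 11 rows to 0.890 and 0.989 CPM. For Rplp0 the 6 rows summed to 3.03 and 146 CPM. Adding these rows left 76 members lower in normoxia, with a median of -0.75. Only reads counted in the matched rows are brought back in this way. The part of using the build GRCm38 for both strains in these differences was not tested.

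**Figure D5:**
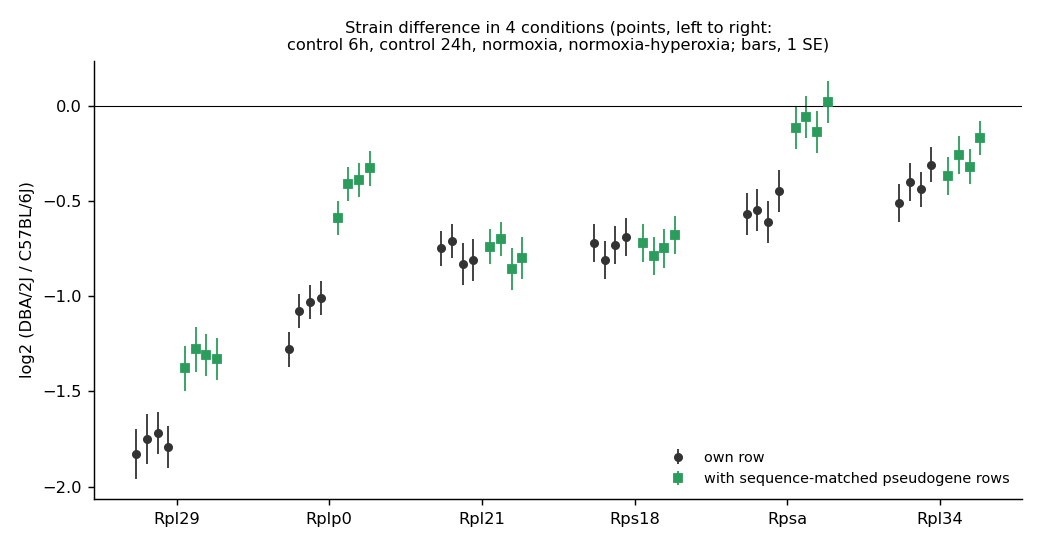
Log2 difference DBA/2J minus C57BL/6J (vertical axis) for the 6 members called lower in DBA/2J in 4 conditions, from each gene's own row (circles) and with sequence-matched pseudogene rows added (squares). Bars are 1 SE. The squares of Rpsa lie between -0.14 and 0.02, and those of Rpl21 and Rps18 lie beside their circles.

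Genes that work with the ribosomal proteins were read from lists. The counts below stand beside the shares of all genes, which were 34.7% higher and 37.4% lower in time, 42.4% and 39.7% in normoxia, 34.1% and 34.1% in normoxia-hyperoxia, and 37% and 36.5% between the oxygen conditions. Ribosomal protein genes outside the naming rule included Rack1 and Fau. Rack1, a scaffold on the small subunit, rose by 0.79 (SE 0.06) and Fau, a ubiquitin-like fusion, by 0.43 (SE 0.07) in time. In normoxia they fell by 1.00 and 0.74. Of 52 ribosome biogenesis factors, 52 rose between 6 h and 24 h (median 1.23), led by Mybbp1a (1.93) and Urb2 (1.76), and 51 fell in normoxia (median -1.56), led by Rrp12 (-2.80) and the snoRNP protein Nop58 (-2.78). In normoxia-hyperoxia 51 were lower than control (median -1.25), and against normoxia 35 were higher and 8 lower (median 0.52). The medians of the ribosomal proteins in the same comparisons were 0.41, -0.76, -0.54 and 0.25. The difference between the lists was not tested.

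Of 24 translation factors and other mRNAs of the TOP class, 20 rose and 2 fell in time (median 0.40). In normoxia 1 rose and 21 fell (median -0.69), in normoxia-hyperoxia 22 fell (median -0.56), and between the oxygen conditions 13 were higher and 3 lower (median 0.23). Pabpc1, the poly(A)-binding protein, rose by 1.03 in time and fell by 1.68 in normoxia. Tpt1, a translationally controlled tumor protein, did the reverse, at -0.27 and 0.29. In the list of 32 genes of the mTOR pathway and translational control, 18 rose and 12 fell in time, and 12 rose and 17 fell in normoxia, with medians of 0.28 and -0.23. Eif4ebp1, an inhibitor of cap-dependent translation that mTORC1 inactivates, rose by 1.53 (SE 0.09) in time and fell by 4.32 (SE 0.07) in normoxia, and Myc, an activator of ribosome synthesis, fell by 5.07 (SE 0.08). Between the oxygen conditions Myc rose by 4.00 (SE 0.12) and Mtor was at -1.66 (SE 0.07).

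Mitochondrial ribosomal protein genes encode the separate ribosome of mitochondria. Of 78, 10 rose and 46 fell in time (median -0.26), and 58 rose and 8 fell in normoxia (median 0.51). In normoxia-hyperoxia 15 were above and 35 below control (median -0.11), and 1 was above and 71 below normoxia (median -0.59). Mrpl34 fell by 1.33 in time and rose by 1.74 in normoxia, while Mrps18b rose by 0.96 and fell by 1.30. Of 9 listed paralogs of cytosolic ribosomal protein genes, 7 could be tested. Rpl7l1, a paralog of Rpl7, rose by 1.03 in time and fell by 0.81 in normoxia, and Rpl3l, a paralog of Rpl3 known from muscle, was at -1.49 and 1.31. Rps27l, a paralog of Rps27 that p53 induces, stood at 0.03 in time (edgeR adjusted p = 0.768), rose by 0.25 in normoxia and was 0.88 lower in normoxia-hyperoxia than in normoxia.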

How the data were processed

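The authors deposited whole-number counts per gene without normalization, 1 column per library. The submitters' processing notes name bcl2fastq 2.20.0, FastQC 0.11.8, STAR 2.7.9a, featureCounts 1.5.1 and the build GRCm38. The strand setting, the annotation release and the treatment of reads that match several places are not given in the sources used here. Per the labels' protocols, RNA was made into stranded mRNA libraries. Group and replicate came from the labels. Symbols were matched for 55141 of 55487 IDs, and coordinates and lengths are from GENCODE M21.

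Each comparison was fitted on its 12 libraries in 4 groups with edgeR 4.0.16 (R 4.3.3, limma 3.58.1): edgeR's default low-count filter with groups, TMM factors, robust quasi-likelihood test and Benjamini-Hochberg adjustment over all genes tested, called under 0.05. This was tested on simulated data. Levels use TMM factors over all 48 libraries. Pseudogene rows were matched with BLAST 2.17.0. Replicates differed beyond sampling noise (lowest chi-square per degree of freedom 5.39 over 48 pairs). The members and lists were chosen with earlier results of these data known. The genes named are the 4 with the largest called change in each direction (for strain contrasts, the 4 with the smallest p), a set of reference and stalk genes, and those singled out in the text. Alternatives were other scalings, no filter, DESeq2 1.42.0, a fit of all libraries, a replicate block, added pseudogene rows and leaving out single libraries. Results for some genes are not reported here.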

Additional observations from a re-analysis of the deposited data

Results flagged for a closer look

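With TMM factors, Rpl5 was the only member whose response differed between the strains past the threshold: the interaction in normoxia, DBA/2J minus C57BL/6J, was 0.40 (SE 0.12, edgeR adjusted p = 0.0382). The level was lower in normoxia in both strains, at -1.07 in C57BL/6J and -0.67 in DBA/2J. The call was lost with RLE factors, with library totals with or without mitochondrial genes, with sequence-matched pseudogene rows, and without any 1 of 9 single libraries. Groups of 3 libraries were too small to look for single libraries that stand apart.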

How the results depend on the processing

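The direction of the members' median and the count of called members within 1.5 times held for normoxia (76), normoxia-hyperoxia (74), their difference (58) and 24 h against 6 h controls (71) under every alternative run. The values below are among those that moved, and the cause was not tested. Library totals in place of TMM, a change of scale for every gene, moved the medians to -1.03 in normoxia, -0.71 in normoxia-hyperoxia, 0.62 in time and 0.16 between strains in 6 h controls. They gave 21 calls between strains in 6 h controls, 24 in normoxia-hyperoxia and 0 for the interaction in normoxia. The median between strains moved from 0.12 to 0.04 in normoxia and from 0.11 to 0.20 in normoxia-hyperoxia. Totals without mitochondrial genes turned the median between strains in normoxia to -0.16 and gave 18 calls between strains in normoxia-hyperoxia. They gave 10 interaction calls in normoxia against control, and 24 between the oxygen conditions, where TMM gave 0. RLE factors gave 0 interaction calls in normoxia. For tunicamycin at 24 h DESeq2 gave 7 calls, without a share of all genes beside them, and the fit of all 48 libraries 0. Without the filter on low counts 11 members were called between strains in normoxia. On the members' own scale that fit gave 16 in normoxia-hyperoxia, 12 between the oxygen conditions and 15 in time. Adding sequence-matched pseudogene rows, chosen after the data were seen, gave 8 calls between strains in 6 h controls, 6 in 24 h controls and 0 interaction calls in normoxia.

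The labels do not say what a replicate number shares, and it was not taken to pair libraries: residuals of same-numbered libraries correlated at -0.14 to 0.37, with all 6 above 0.1 in 0 of 9 comparisons. The mean over pairs was positive in each comparison (0.014 to 0.18), and 32 of 54 pairs correlated best with their own number, every pair in 1 comparison. In DBA/2J, replicate 1 had the highest share of member counts in every condition, while in C57BL/6J no replicate number did. A link between same-numbered libraries therefore stays possible. With a replicate block 33 members were called between strains in normoxia, 16 in normoxia-hyperoxia, and 21 on the own scale in time, and other counts stayed within 1.5 times. Shares of all genes called under the block are not given here, so these counts have no yardstick.

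Leaving out single libraries gave 0 to 2 calls for tunicamycin at 24 h, with 1 call without C57BL/6J control replicate 1, DBA/2J control replicate 1 or 3, or DBA/2J tunicamycin replicate 2 or 3. The interaction in normoxia had 0 to 2 calls, the 2 without DBA/2J normoxia replicate 3. Strain calls in normoxia ran from 9 to 21, the lowest without C57BL/6J replicate 2, and were 12 without C57BL/6J replicate 3 or DBA/2J replicate 1. In 6 h controls they ran from 7 without DBA/2J replicate 3 to 24 without C57BL/6J replicate 1, with 8 without DBA/2J replicate 2, and the median ran from -0.06 to 0.14. The median between strains ran from 0.03 to 0.18 in normoxia and from 0.02 to 0.15 in normoxia-hyperoxia. Own-scale calls in time ran from 22 to 34, at 22 or 23 without DBA/2J 6 h replicate 3, C57BL/6J 24 h replicate 1, or DBA/2J 24 h replicate 2 or 3. Among single members the sign turned for Rps21 in normoxia-hyperoxia (-0.08, library totals), for Rps29 in time (0.16 and 0.05 under totals with and without mitochondrial genes, -0.13 to 0.05 leaving out libraries), and for Rps2 in normoxia against 6 h controls (0.02, totals without mitochondrial genes). Rps21 in normoxia ran from -0.10 to 0.00, and Rpsa between strains in normoxia-hyperoxia was 0.02 with either set of pseudogene rows.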
